A study of Mus musculus with 6 samples.

Results

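The proteins that build caveolae were followed in inguinal white adipose tissue (iWAT), the subcutaneous fat depot of the mouse groin, of mice with and without an adipocyte deletion of the long noncoding RNA *Lexis*. The set holds 9 genes: the caveolins *Cav1*, *Cav2* and *Cav3*, the cavins *Ptrf*, *Sdpr* and *Prkcdbp*, and the neck and F-BAR proteins *Ehd2*, *Pacsin2* and *Pacsin3*. Members were taken by gene symbol from the 19509 symbols of the count table, and a symbol listed more than once is represented by its most counted entry. Of the 9 genes, 6 had a row, 5 of these passed the filter on low counts, and *Cav1*, *Cav2* and *Pacsin3* were not analysed here.

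Caveolae are small flask-shaped pits of the plasma membrane, rich in cholesterol and sphingolipids, and adipocytes and endothelial cells are among the cells that carry most of them. Caveolins sit as oligomers in the inner leaflet of the membrane, cavins form a coat around the bulb, and EHD2, a membrane-bound ATPase, gathers at the neck and holds the pit at the surface, while the PACSIN proteins bind curved membrane through an F-BAR domain. In fat cells the pits flatten when the membrane is stretched and are linked to fatty acid uptake and to the insulin receptor, and loss of caveolin-1 or of cavin-1 leads to lipodystrophy.

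RNA-seq was performed on iWAT of *Lexis*-AdWT and *Lexis*-AdKO mice, with 3 biological replicates per group. *Lexis*-AdKO mice came from a floxed *Lexis* allele crossed with *Adipoq*-cre, a Cre driver active in mature adipocytes, so other cells of the depot should keep the allele, and *Lexis*-AdWT mice were their littermates. Both groups were on a C57BL/6 background and ate a Western diet for 12 weeks before the tissue was taken, and the labels give no age for these mice, while most mice of the study were young adults. RNA came from whole tissue, so fewer cells of a type and less RNA per cell cannot be told apart, and since the sources do not tie libraries to litters or days, the tests measure the spread between these samples.

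Total counts ranged from 14470542 to 17882713 per library. The transcript that the *Lexis* probes match, *4930412L05Rik*, counted 8, 9 and 8 in AdWT against 21, 11 and 13 in AdKO, and thus was not lower in the libraries labelled AdKO (log2 fold change 0.87, standard error 0.381, adjusted p = 0.851, edgeR; 0.49 without AdKO 1). Its AdKO libraries all lay above its AdWT libraries in CPM, as for 6.16% of all rows. Its count is low, is not split by exon and need not cover the deleted stretch. By qRT-PCR, the paper reports that Cre removed *Lexis* expression from adipose tissues, and the groups are named by their labels throughout. The tissue label was borne out by *Fabp4*, the adipocyte fatty acid binding protein, which ranked 3 of all rows, although *Pnpla2*, a lipase gene of every adipocyte, was listed at 0 in all libraries. Some libraries stood apart. The summed level of the skeletal muscle markers was 192 CPM (counts scaled to a common library size) in AdWT 2 and 20.3 to 39.6 in the other libraries labelled AdWT, and that of the epithelial markers was 20.3 CPM in AdWT 3 and 48.0 in AdKO 3 against 0.894 to 1.44 in the other libraries. AdWT 3 was also the lowest library for macrophage markers, at 623 CPM against 915 to 1248, and for fibroblast and progenitor markers, at 255 CPM against 456 to 661. Without AdWT 2 the log2 fold change of *Ehd2* was -0.19, that of *Prkcdbp* -0.19 and that of *Sdpr* -0.10, and without AdKO 3 they were -0.15, -0.19 and -0.14. The largest shift toward 0 came without AdWT 3, at -0.12 for *Ehd2*, -0.03 for *Prkcdbp* and -0.06 for *Sdpr*.

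The 6 measured genes lie on 5 chromosomes of the mm9 genome, which is NCBIM37. *Ehd2* (ENSMUSG00000074364.4) spans chr7:16532326-16552916 on the minus strand and *Prkcdbp* (ENSMUSG00000037060.2) chr7:112629121-112630711, also on the minus strand. *Sdpr* (ENSMUSG00000045954.6) lies at chr1:51345970-51359803 on the plus strand, *Ptrf* (ENSMUSG00000004044.8) at chr11:100818047-100832201 on the minus strand, *Pacsin2* (ENSMUSG00000016664.7) at chr15:83206037-83295036 on the minus strand and *Cav3* (ENSMUSG00000062694.6) at chr6:112409495-112422865 on the plus strand. The table gives 1 count per row and library, so values cannot be split by exon, intron or isoform. No exon of these 6 genes overlaps that of another gene in the GENCODE annotation of that build. *Sdpr*, *Prkcdbp* and *Cav3* have 1 annotated transcript each, *Ehd2* and *Pacsin2* have 3, and *Ptrf* has 4. *Cav2* and *Cav1* are neighbours on chromosome 6, with 17.2 kb between the end of *Cav2* and the start of *Cav1*.

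Promoter windows from RefSeq (GRCm38.p6, 250 bases before to 50 after a transcript start) were found for 8 of the 9 genes, all but *Prkcdbp*. Those of *Ehd2*, the member with the highest count, and of the cavins *Sdpr* and *Ptrf*, whose levels lay far apart, are given 5′ to 3′ on the strand of the gene, with capitals for matches to the CCAAT box (CCAAT) and the GC box (GGGCGG) on either strand. The window of *Ehd2* is chr7:15967486-15967785 (minus), that of *Sdpr*, called *Cavin2* in RefSeq, is chr1:51288876-51289175 (plus), and the first of those of *Ptrf*, called *Cavin1*, is chr11:100970568-100970867 (minus).
Ehd2: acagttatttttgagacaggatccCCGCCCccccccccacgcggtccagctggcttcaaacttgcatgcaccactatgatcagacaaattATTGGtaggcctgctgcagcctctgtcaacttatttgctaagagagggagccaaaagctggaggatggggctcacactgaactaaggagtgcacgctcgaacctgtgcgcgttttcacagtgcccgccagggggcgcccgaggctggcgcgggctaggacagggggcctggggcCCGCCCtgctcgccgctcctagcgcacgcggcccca
Sdpr: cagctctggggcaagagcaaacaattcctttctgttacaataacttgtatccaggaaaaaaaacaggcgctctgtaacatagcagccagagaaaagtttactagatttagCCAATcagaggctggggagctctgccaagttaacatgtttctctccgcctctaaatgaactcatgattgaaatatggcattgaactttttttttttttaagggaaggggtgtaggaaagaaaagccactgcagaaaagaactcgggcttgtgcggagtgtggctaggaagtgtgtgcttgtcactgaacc
Ptrf: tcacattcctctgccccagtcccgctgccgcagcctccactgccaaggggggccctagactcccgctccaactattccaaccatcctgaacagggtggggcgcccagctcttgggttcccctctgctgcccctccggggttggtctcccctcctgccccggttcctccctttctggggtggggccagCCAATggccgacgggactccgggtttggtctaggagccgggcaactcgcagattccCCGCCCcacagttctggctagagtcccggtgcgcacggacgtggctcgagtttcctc
These 3 promoters differ in base composition. The window of *Ehd2* holds 18 CpG dinucleotides at 62.0% GC and that of *Ptrf* 17 at 66.7%, while that of *Sdpr* holds 4 at 43.3%, against a median of 7 CpG and 52.7% GC over 32851 windows. Counted from the transcript start, a CCAAT box begins at position -160 in *Ehd2* (on the opposite strand), -140 in *Sdpr* and -63 in *Ptrf*, and 37.4% of all windows hold one. A GC box is found 2 times in *Ehd2*, 1 time in *Ptrf* and not in *Sdpr*, and 35.7% of all windows hold one. No window of the 8 genes holds the core motif of TCF/LEF factors (CTTTGAT, 3.73% of all windows) or a perfect PPAR DR1 element (0.0396%), and both strands were searched. A TATA box (TATAAA, 13.6% of all windows) is found among them in 1 window of *Cav1*, on the opposite strand. These are matches of letters and not measured binding sites.

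Caveola genes differed widely in level. To compare genes, the TMM-scaled CPM of each was divided by its exon length in kb. On this scale *Prkcdbp*, whose product cavin-3 is a cavin that binds protein kinase C delta, was highest at 927 CPM per kb on average over the 6 libraries. *Ehd2* followed at 640 and *Sdpr*, encoding cavin-2, which binds phosphatidylserine and shapes the caveolar membrane, at 514. Neighbours in this order were close: the lowest library for *Prkcdbp* was 1.11 times the highest for *Ehd2*, and the lowest for *Ehd2* was 1.003 times the highest for *Sdpr*.
Far lower lay *Ptrf*, encoding cavin-1, the cavin without which caveolae do not form, at 2.995 CPM per kb, and *Pacsin2*, the F-BAR protein syndapin 2, at 2.31. The lowest library for *Ptrf* was 1.003 times the highest for *Pacsin2*, so these 2 were near each other as well. *Cav3*, the caveolin of muscle, was lowest at 0.137 CPM per kb. Of the other EHD family members, which act mainly on endosomes, *Ehd1* averaged 154 CPM per kb, *Ehd4* 61.8 and *Ehd3* 44.8, so *Ehd2* was the highest of the family in every library. The libraries of *Ehd4* and *Ehd3* overlapped.
How reads shared by several rows were counted is not given in the sources used here. *Pacsin2* is the only measured member with several rows (3), and its other rows hold 5 counts in all over the 6 libraries and none. Over all symbols, 1.79% of the 10815 symbols with 1 row reached 500 CPM (not TMM-scaled) in their highest row, against 0.757% of those with 2 rows and 0.3% of those with 3 or more. The median of the highest row was lowest for symbols with 1 row, at 0.197 CPM, against 0.531 for 2 and 0.418 for 3 or more. Levels were not compared by the number of transcripts. The counting rule is unknown for *Ptrf* too, with its 1 row and 4 transcripts, so its distance from the other cavins is a distance between counts in this table and may not be one between transcript levels. The comparison of a gene between libraries rests on the same row.

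**Figure D1:**
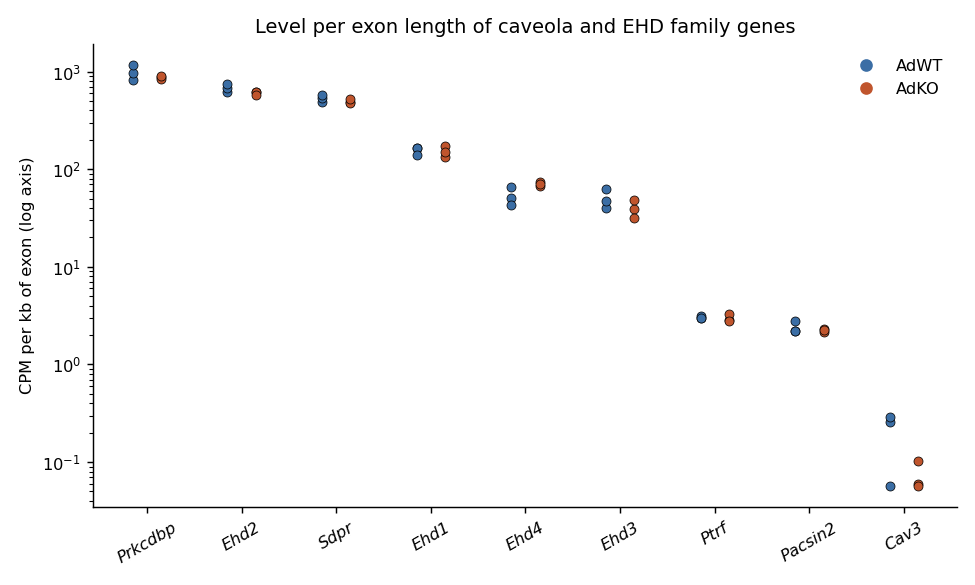
Level of each gene in each library, in TMM-scaled CPM per kb of exon on a log axis, with AdWT libraries in blue on the left of each gene and AdKO libraries in orange on the right. *Prkcdbp*, *Ehd2* and *Sdpr* lie between 479 and 1165 CPM per kb, *Ptrf* and *Pacsin2* between 2.16 and 3.25, and *Cav3* below 0.289.

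The question of the comparison was whether the caveola genes are expressed at other levels in iWAT of mice with the adipocyte deletion. The fitted level in the libraries labelled AdKO was 0.883 times that of AdWT for *Ehd2*, 0.890 times for *Prkcdbp*, 0.930 times for *Sdpr*, 0.934 times for *Pacsin2* and 0.977 times for *Ptrf*. None of the 5 genes tested passed the threshold: 0 had an adjusted p under 0.05 with edgeR's quasi-likelihood test (0% of all 9872 rows did), and 0 had an unadjusted p under 0.05, as 5.73% of all rows did. With DESeq2, 0 members had an adjusted p under 0.05 and 0 an unadjusted one, where 0.152% and 2.42% of its rows did. The log2 fold change was below 0 for all 5 (48.3% of all rows were), with a median of -0.10 beside 0.01 over all rows tested. Rows as abundant as *Ehd2*, *Sdpr* and *Prkcdbp* leaned the same way: of the 241 rows tested with a mean of at least 500 CPM, 73.9% were below 0, with a median of -0.09.

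**Figure D2:**
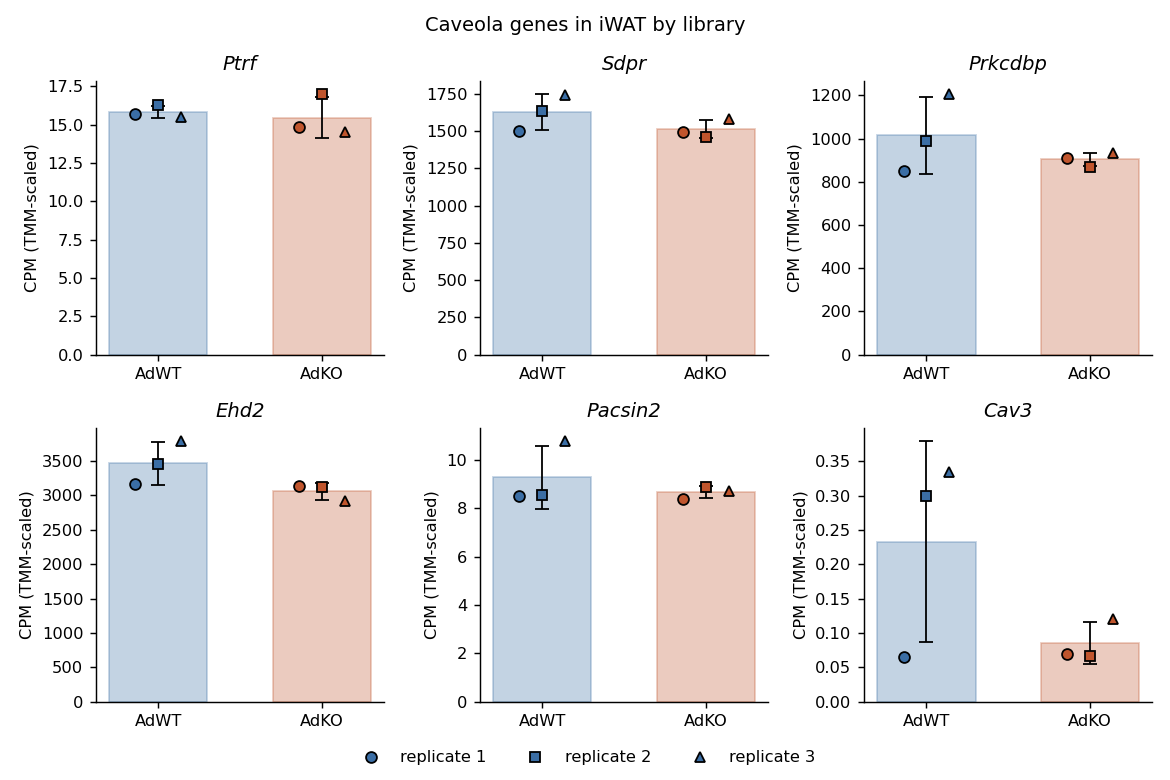
TMM-scaled CPM of the 6 measured caveola genes, with 1 point per library (circle, square and triangle for replicates 1, 2 and 3), bars for the group mean and error bars for the SD, and AdWT in blue and AdKO in orange. The AdKO points of *Ehd2* all lie below its AdWT points, while the groups overlap for the other 5 genes.

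Caveolins form the core of the coat, and *Cav3* was the one measured. *Cav3* was counted 1, 5 and 5 times in AdWT libraries and 1, 1 and 2 times in AdKO libraries, which is 0.0654 to 0.335 CPM and 0.0659 to 0.120 CPM. The groups overlapped, since AdWT 1 was the lowest of all 6, and the gene did not pass the filter on low counts. A count of 0 allows up to 3 counts, and 4 of the 6 libraries lay below that, so the gene was near the floor. No difference was detected at this depth (exact two-sided permutation of the library labels on log2 CPM, p = 0.4, where 3 against 3 libraries cannot go below 0.1). *Cav3* is a muscle gene, and the skeletal muscle markers, led by *Atp2a1*, the calcium pump of fast muscle, had a summed level of 20.3 to 192 CPM in AdWT and 6.49 to 7.36 CPM in AdKO, with *Myh4* and *Tnnt3* listed at 0 throughout. All 7 markers tested were lower at an unadjusted p under 0.05 with edgeR, as 2.98% of all rows were, but 0 passed the adjusted threshold, and the groups did not overlap for 6 of them, with AdKO lower, as for 5.72% of all rows. DESeq2 gave 5 of the 8 muscle markers it adjusted an adjusted p under 0.05, all of them lower, against 0.152% of all rows it adjusted. Their part in the counts of *Cav3* was not tested.

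Among the cavins, *Ptrf* had the smallest range over the 6 libraries relative to its mean, 15.7% against 17.8% for *Sdpr* and 37.1% for *Prkcdbp*. Its counts were 240, 272 and 232 in AdWT and 216, 258 and 242 in AdKO, or 15.7, 16.3 and 15.5 CPM against 14.8, 17.0 and 14.5 CPM. Both the highest and the lowest library were labelled AdKO, and the means were 15.8 ± 0.384 (SD, n = 3) and 15.5 ± 1.34 CPM (SD, n = 3). The difference was -0.03 on the log2 scale (standard error 0.114, adjusted p = 0.966, edgeR), and its 95% interval ran from 18.8% lower to 17.4% higher, and a change of either sign lies within it. The sign of the difference turned with scaling by library size alone (0.012) and without AdKO 3 (0.0091), and without AdKO 2 it was -0.11.
*Sdpr* had 1500, 1639 and 1743 CPM in AdWT and 1496, 1464 and 1582 CPM in AdKO, from 21755 to 27412 counts per library. AdKO 3 lay above AdWT 1, so the groups overlapped, and the means were 1627 ± 122 and 1514 ± 61.4 CPM (SD, n = 3 each). Its log2 fold change was -0.10 (95% interval -0.31 to 0.10, adjusted p = 0.869, edgeR), and it was -0.06 without AdWT 3 and -0.16 without AdWT 1.
*Prkcdbp* measured 851, 989 and 1206 CPM in AdWT and 908, 870 and 933 CPM in AdKO, from 13000 to 18027 counts per library. AdWT held both the lowest and the highest library, and all 3 AdKO libraries lay between them, with means of 1015 ± 179 and 904 ± 31.5 CPM (SD, n = 3 each). Its log2 fold change was -0.17 (95% interval -0.47 to 0.13, adjusted p = 0.855, edgeR) and rested on AdWT 3: without that library it was -0.03, and without AdWT 1 it was -0.28 with an unadjusted p of 0.0331 from edgeR, in a fit where 11.8% of all rows had an unadjusted p under 0.05.

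*Ehd2* was the member with the largest absolute level difference and the only one whose groups did not overlap, with AdKO below AdWT. Of all rows 11.9% did not overlap, 5.72% with AdKO lower and 6.16% with AdKO higher. It had 48292, 57732 and 56592 counts in AdWT and 45674, 47358 and 48600 in AdKO, and took 0.304% to 0.369% of all counts of a library, rank 22 of all rows by CPM. After scaling it measured 3160, 3451 and 3787 CPM in AdWT and 3140, 3119 and 2920 CPM in AdKO. All AdKO libraries lay below all AdWT libraries, but the lowest of AdWT and the highest of AdKO were only 3160 and 3140 CPM (exact two-sided permutation of the library labels, p = 0.1, which is the lowest it can give). The means were 3466 ± 314 and 3060 ± 121 CPM (SD, n = 3 each), and the log2 fold change was -0.18 (95% interval -0.41 to 0.05, adjusted p = 0.853, edgeR), between 24.9% lower and 3.84% higher. Of all rows tested, 19.2% had a log2 fold change this low or lower. Without AdWT 3 it was -0.12, and without AdWT 1 it was -0.24 with an unadjusted p of 0.0372 and an adjusted p of 0.406 from edgeR. In the fit without AdWT 1, 11.8% of all rows had an unadjusted p under 0.05.
*Pacsin2* had 130, 143 and 161 counts in AdWT and 122, 135 and 145 in AdKO, or 8.51, 8.55 and 10.8 CPM against 8.39, 8.89 and 8.71 CPM. AdWT 3 stood above the other 5 libraries, which lay close together and overlapped between the groups. Its log2 fold change was -0.10 (95% interval -0.45 to 0.25, adjusted p = 0.913, edgeR) and became 0.01 without AdWT 3.

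AdWT 3 was the highest library for *Ehd2*, *Sdpr*, *Prkcdbp*, *Pacsin2* and *Cav3*, and not for *Ptrf*. In log2 CPM centred on each gene's mean, it stood at 0.34 for *Prkcdbp*, 0.26 for *Pacsin2*, 0.22 for *Ehd2* and 0.15 for *Sdpr*, but at -0.01 for *Ptrf*. The same library was also highest for the adipocyte markers *Fabp4*, *Adipoq* and the leptin gene *Lep* and below the mean for the endothelial markers *Cdh5* and *Cldn5* (*Adipoq*, *Lep* and *Cldn5* were picked after their values were seen). Both endothelial markers were also below their means in AdWT 2 and lowest in AdKO 3, at -0.27 each. Other adipocyte markers differed: *Lipe* was also highest in AdWT 3, but *Plin1*, the lipid droplet coat protein perilipin 1, was lowest there at 31.8 CPM against 32.6 to 38.6 CPM in the other libraries, and *Pparg* was highest in AdKO 2. The root mean square distance of *Ehd2* from the other members over the 6 libraries was 0.077 for *Sdpr*, 0.084 for *Pacsin2*, 0.093 for *Prkcdbp* and 0.123 for *Ptrf*, against a median of 0.161 over 4677 rows with at least 10 CPM. *Pacsin2*, at 8.97 CPM on average, lay below that limit. From *Ptrf* the distance was 0.123 for *Sdpr*, 0.135 for *Pacsin2* and 0.190 for *Prkcdbp*, against a median of 0.139, so *Prkcdbp* was farther than the median row. The rows nearest to *Ehd2* by this measure, an anchor chosen after *Cav1* proved to be without values, were *Carhsp1* (0.0147), *Phb* (0.0272), *Tusc5* (0.0294), *Sil1* (0.0308) and *Ywhab* (0.0324). Those nearest to *Ptrf* were *Trappc3* (0.0226), *Erp44* (0.0250), *Oaz2* (0.0283), *Rraga* (0.0289) and *Cs* (0.0305). With 6 libraries and so many rows such near matches are a description only.

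**Figure D3:**
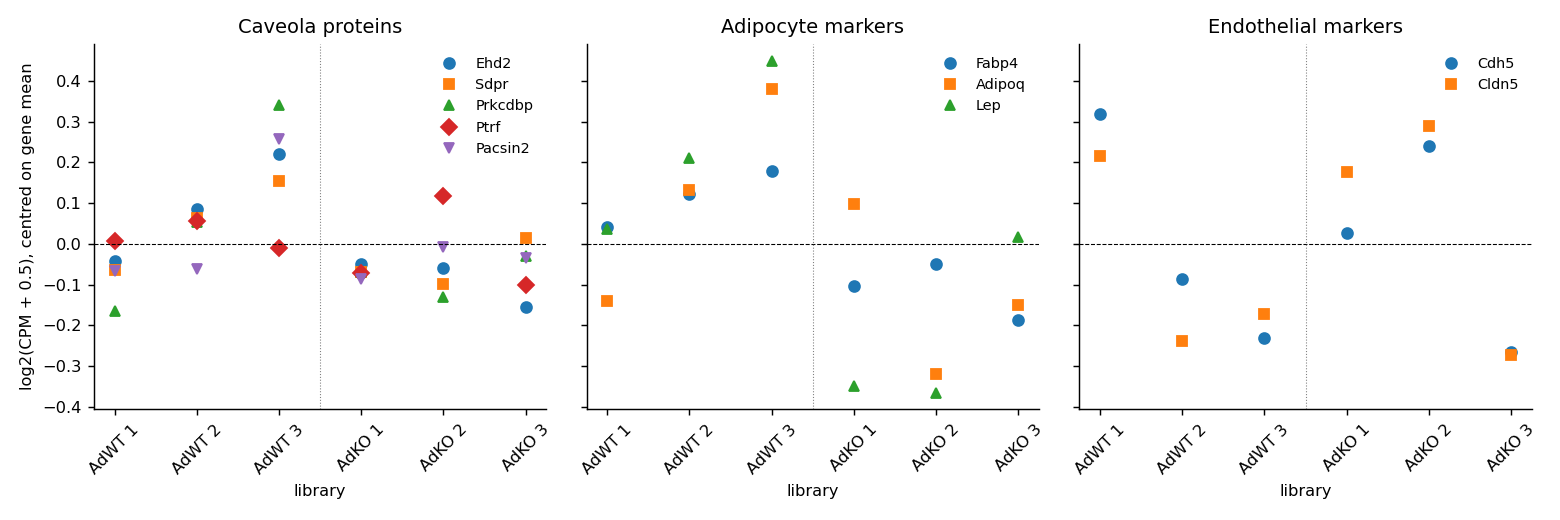
Log2(CPM + 0.5) of each gene in each library, centred on the gene's mean, for the caveola genes, 3 adipocyte markers and 2 endothelial markers, with a dotted line between the AdWT and AdKO libraries (numbers within a group carry no order). AdWT 3 is the top library for the caveola genes other than *Ptrf* and for the 3 adipocyte markers drawn, which were picked after their values were seen (*Plin1*, not drawn, was lowest there), and the 2 endothelial markers lie below 0 there and in AdWT 2 and AdKO 3.

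Ratios within a library need no scaling between libraries, and those given here were chosen after it was seen that *Cav1* had no values. *Sdpr* counts per *Ehd2* count were 0.475, 0.475 and 0.460 in AdWT and 0.476, 0.469 and 0.542 in AdKO. AdKO 3 stood alone at the top and the other 5 libraries lay within 0.460 to 0.476. *Prkcdbp* counts per *Ehd2* count were 0.269, 0.287 and 0.319 in AdWT and 0.289, 0.279 and 0.319 in AdKO, and the 2 groups overlapped. Ratios of *Ptrf* to *Ehd2* (mean 0.00460 in AdWT and 0.00506 in AdKO) and of *Pacsin2* to *Ehd2* (0.00268 and 0.00285) overlapped too, and the exact permutation p of these 4 ratios lay between 0.2 and 0.7.
Against *Fabp4*, a fatty acid carrier of adipocytes, there were 0.0991, 0.102 and 0.108 *Ehd2* counts per *Fabp4* count in AdWT and 0.109, 0.104 and 0.107 in AdKO. The log2 difference of this ratio was 0.05 (exact permutation p = 0.3), opposite in sign to the -0.18 of *Ehd2* itself, and those of *Sdpr* and *Prkcdbp* to *Fabp4* were 0.12 and 0.07, the latter -0.011 without AdWT 1 and 0.17 without AdWT 3. *Fabp4* was itself lower in all AdKO libraries, at a log2 fold change of -0.23. Other adipocyte markers tested, from -0.46 for *Lep* to 0.10 for *Plin1*, were not used for a ratio. With 1 library left out, the ratio of *Ehd2* lay between 0.021 (without AdWT 1) and 0.083 (without AdWT 3) and that of *Sdpr* between 0.054 (without AdKO 3) and 0.18 (without AdKO 2). Against *Cdh5*, which encodes the endothelial junction protein VE-cadherin, the ratio of *Ehd2* spread from 2.73 to 4.80 within AdWT alone and from 2.85 to 3.79 in AdKO (log2 difference -0.18, exact permutation p = 0.5). That difference rested on single libraries, at -0.40 without AdWT 1 and 0.0048 without AdWT 3. None of the 10 ratios separated the groups.

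Cell type markers are given beside these values, and their part in the results was not tested. None of the markers of any list passed the adjusted threshold with edgeR, and with DESeq2 only the 5 skeletal muscle markers did. Of the 6 adipocyte markers tested, 5 were lower and 1 was higher (48.3% of all rows were below 0), at a median of -0.19 on the log2 scale. *Fabp4* stood at -0.23 (adjusted p = 0.853, edgeR). The summed level of the adipocyte list was 46216, 50325 and 54686 CPM in AdWT and 42072, 41535 and 41403 CPM in AdKO, so the AdKO libraries lay below all AdWT libraries. *Fabp4*, *Lep* and *Adipoq* make up nearly all of that sum. Of the 6 markers tested only *Fabp4* and *Lep* had groups that did not overlap, with AdKO lower, as for 5.72% of all rows. Of the 6 endothelial markers tested, 4 were higher and 2 lower, with a summed level of 1015 to 1463 CPM in AdWT and 990 to 1412 CPM in AdKO, and *Cdh5* was at -0.004 on the log2 scale.
Other lists were as follows, as summed CPM in AdWT and then AdKO, with counts of markers to be set beside the 48.3% of all rows below 0. Smooth muscle and pericyte markers, led by *Notch3*, measured 311 to 512 and 423 to 474, with 3 of 3 tested higher. Fibroblast and progenitor markers, led by *Lum*, measured 255 to 482 and 456 to 661, with 3 of 4 higher. Macrophage markers, led by *C1qa*, measured 623 to 1199 and 1049 to 1248, with 4 of 4 higher and *Emr1* listed at 0 throughout. Lymphocyte markers, led by *Cd3e*, measured 10.2 to 24.4 and 9.56 to 17.1, with 4 of 4 lower, and the epithelial markers, led by the keratin gene *Krt18*, 0.956 to 20.3 and 0.894 to 48.0, with 1 tested and higher. Apart from the muscle list, the one marker with an unadjusted p under 0.05 from edgeR was *Lep*, which was lower, as 2.98% of all rows were at that threshold.

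Genes that work with caveolae were followed as a list of 21: EHD and PACSIN relatives, dynamins, flotillins, scaffolds and proteins that signal or carry cargo there. Of these, 18 had a row and 12 were tested, 9 with a log2 fold change below 0 (48.3% of all rows were) and 3 above, at a median of -0.07. None passed the adjusted threshold with edgeR, and 2 had an unadjusted p under 0.05, 1 higher and 1 lower in AdKO, where 2.76% and 2.98% of all rows did. *Dnm1* and *Insr* were listed at 0 in all libraries, and *Pacsin1*, *Dnm2* and *Popdc2* were not analysed here.
*Ehd4*, an EHD protein of endosomes, was the higher one. It measured 262, 203 and 173 CPM in AdWT and 267, 297 and 285 CPM in AdKO, so all AdKO libraries lay above all AdWT libraries, as for 6.16% of all rows. Its log2 fold change was 0.41 (95% interval 0.08 to 0.75, adjusted p = 0.851, edgeR), opposite in sign to that of *Ehd2*, but the difference between the 2 paralogs was not tested. With 1 library left out its log2 fold change lay between 0.28 (without AdWT 3) and 0.59 (without AdWT 1), and its unadjusted p from edgeR was above 0.05 in 4 of the 6 fits, at up to 0.0744 without AdWT 2.
*Cd36*, the fatty acid translocase that sits in caveolae of fat cells, was the lower one. It had 314, 360 and 213 counts in AdWT and 149, 163 and 131 in AdKO, and the groups did not overlap, with AdKO lower, as for 5.72% of all rows. Its log2 fold change was -0.97 (95% interval -1.43 to -0.50, adjusted p = 0.817, edgeR). DESeq2 gave -0.98 with an adjusted p of 0.0133, and over all alternatives the adjusted p ranged from 0.0133 to 0.998. *Cd36* has 5 rows, of which the highest averaged 18.8 CPM in AdWT, and reads counted to the other rows or to none are not in these values.
Of the highest genes of the list by CPM, 4 are left. *Ehd1*, a recycling endosome protein, measured 584 ± 58.3 CPM in AdWT and 564 ± 71.9 CPM in AdKO (SD, n = 3 each), with a log2 fold change of -0.05. *Flot1*, which scaffolds flotillin microdomains outside caveolae, measured 376 ± 48.1 and 359 ± 1.29 CPM, at -0.07. For *Nos3*, the endothelial nitric oxide synthase that caveolin-1 inhibits, the means were 225 ± 33.7 and 198 ± 28.8 CPM, at -0.19. *Ehd3* measured 183 ± 42.4 and 145 ± 30.6 CPM, at -0.34. *Murc*, the muscle cavin cavin-4, is given as a cavin although it was low, with 17 to 34 counts in AdWT and 19 to 30 in AdKO, and was picked after its values were seen. With 1 library left out, *Ehd1* turned to 0.034 (without AdKO 1) and *Flot1* to 0.032 (without AdWT 3). *Ehd3* then lay between -0.50 (without AdKO 3, unadjusted p 0.0460, adjusted p 0.903, edgeR) and -0.15 (without AdWT 3), and *Nos3* between -0.32 (without AdWT 3, unadjusted p 0.0368, adjusted p 0.941, edgeR) and -0.10 (without AdKO 3). The replicate block gave *Ehd3* an unadjusted p of 0.0371 in edgeR, with an adjusted p of 0.941. Of all rows, 5.04% had an unadjusted p under 0.05 without AdKO 3, 4.9% without AdWT 3 and 4.23% with the replicate block. These 5 had overlapping groups and did not pass the test.

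**Figure D4:**
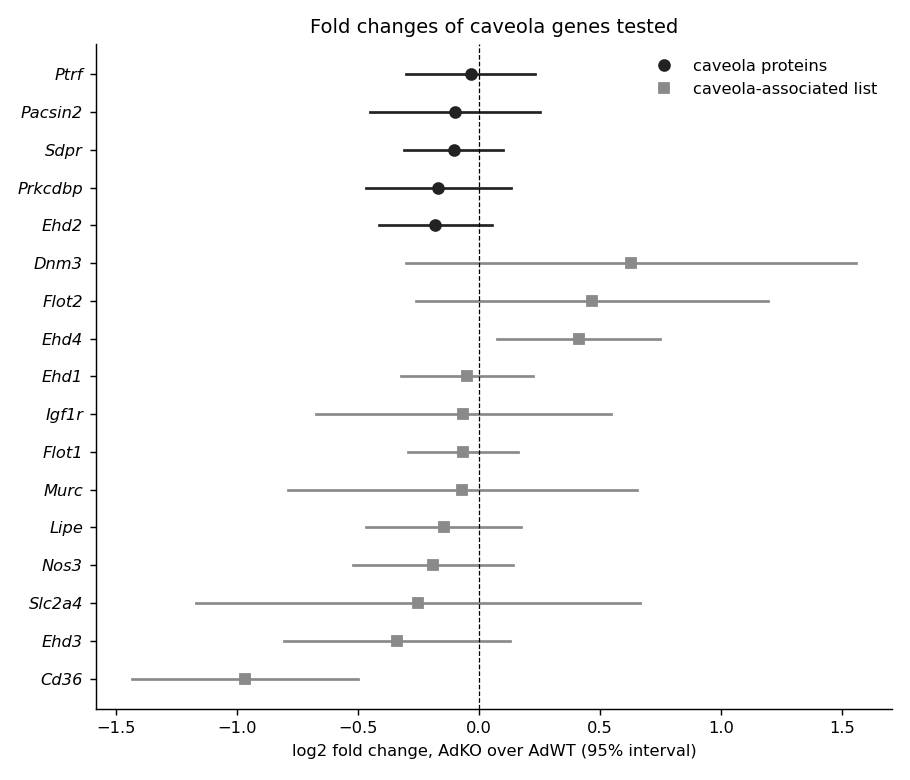
Log2 fold change of AdKO over AdWT from edgeR with its 95% interval, for the 5 caveola genes tested (black circles) and 12 genes of the caveola-associated list (grey squares). All 5 intervals of the caveola genes include 0, and among the others those of *Ehd4* and *Cd36* do not.

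Under 16 alternatives of test, scaling, filter, blocking and library choice, the log2 fold change stayed below 0 for *Ehd2* (-0.24 to -0.12), *Prkcdbp* (-0.28 to -0.03) and *Sdpr* (-0.16 to -0.05). Those of *Pacsin2* and *Ptrf* crossed 0, with highest values of 0.01 each. No member reached an adjusted p under 0.05 in any of these fits, in edgeR or DESeq2.

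**Figure D5:**
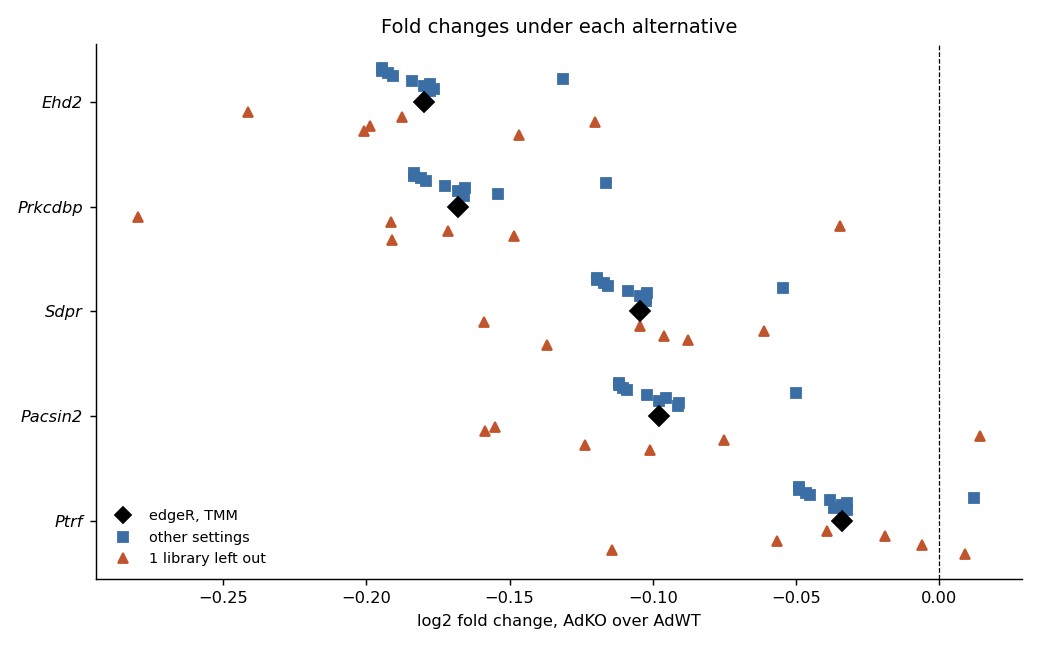
Log2 fold change of the 5 caveola genes tested under each alternative, with a black diamond for edgeR with TMM scaling, blue squares for other settings and orange triangles for fits without 1 library (vertical offsets only separate the symbols). The values of *Ehd2*, *Prkcdbp* and *Sdpr* all lie left of 0, while those of *Pacsin2* and *Ptrf* reach 0.01.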

How the data were processed

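Libraries from iWAT RNA of 6 mice were prepared with the KAPA Stranded RNA-Seq Kit and sequenced on an Illumina HiSeq instrument. The authors aligned reads with HISAT2 to mm9, used DESeq2 and deposited raw counts, 37024 rows with several rows for some symbols; the counting tool and its strand setting are not given in the sources used here. No column belonged to no sample. The members and all lists were chosen with earlier results of these data known.

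Rows were filtered with filterByExpr, TMM-scaled and tested with glmQLFit and glmQLFTest in edgeR 4.0.16 (R 4.3.3), with Benjamini-Hochberg adjustment over 9872 rows. Alternatives were DESeq2 1.42.0 with and without its filters, scaling by RLE, by upper quartile or by library size, looser and stricter filters (1 count in any library, 10 in every library), a robust fit, a replicate block, summed rows of a symbol and each library left out in turn. Intervals are at the 95% level. Permutation tests and distances used log2 CPM with 0.5 added, and ratios used counts with 0.5 added. With a common biological coefficient of variation of 0.196, replicate spread rather than depth limited the abundant genes, while a count of 0 allows 3 counts, or 0.168 to 0.207 CPM, counting error only.

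Genes named are the members, the targeted gene, associated genes with an unadjusted p under 0.05 or among the 5 highest in CPM, the highest marker of each list, and the 5 rows nearest to *Ptrf*; *Murc*, *Adipoq*, *Lep*, *Lipe*, *Plin1*, *Pparg*, *Cldn5*, genes at 0 and the rows nearest to *Ehd2* were added after values were seen. Lists hold caveola-associated genes and markers of adipocytes, endothelium, smooth muscle and pericytes, skeletal muscle, fibroblasts, macrophages, lymphocytes and epithelium; *Lipe* and *Pdgfrb* are in 2 lists. Promoters came from RefSeq GRCm38.p6 and gene models from GENCODE M1 (NCBIM37). Figures used matplotlib 3.10.9.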

Additional observations from a re-analysis of the deposited data

How the results depend on the processing

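With DESeq2, 17 rows had an adjusted p under 0.05 with its defaults, 27 with its filtering tuned to that threshold (added after the data were seen) and 13 without its filters, and 1 caveola-associated gene, *Cd36*, was among the 17 and the 13. Keeping rows with at least 1 count in any library gave 1 such row and 1773 rows whose groups did not overlap (9.07% of a larger number of rows). *Ptrf* turned to 0.012 (log2) with library size scaling. Leaving out each library gave 0 to 1 rows with an adjusted p under 0.05 (1 without AdKO 3), 329 to 1208 with an unadjusted p under 0.05 (lowest without AdWT 2, highest without AdWT 1), and 1842 to 3245 rows whose groups did not overlap, since 2 libraries against 3 overlap less often. Of the members, 1 to 3 then did not overlap (3 without AdWT 1, where 31.8% of all rows did not, and 2 without AdKO 2 or AdKO 3, where 20% and 21.4% did not) and 0 to 2 had an unadjusted p under 0.05 (2 without AdWT 1, beside 11.8% of all rows). These fits gave -0.11 to 0.0091 for *Ptrf* (highest without AdKO 3), -0.16 to 0.014 for *Pacsin2* (highest without AdWT 3), -0.16 to 0.034 for *Ehd1* (highest without AdKO 1) and -0.14 to 0.032 for *Flot1* (highest without AdWT 3). The cause of these turns was not tested. Same-numbered libraries deviated together with r of -0.10, -0.12 and 0.35, so the numbers were not taken as pairs. The replicate block gave 418 rows with an unadjusted p under 0.05 and 0 with an adjusted one, and left *Ehd2* at -0.18, *Prkcdbp* at -0.15, *Sdpr* at -0.10, *Pacsin2* at -0.09 and *Ptrf* at -0.04. Of the 10 ratios, those of *Prkcdbp* to *Ehd2* and to *Fabp4* and those of *Ehd2*, *Sdpr* and *Prkcdbp* to *Cdh5* turned sign in a fit without 1 library. The median of the members lay between -0.16 and -0.05 in all fits. Ratios to *Cav1* and fits of *Cav1*, *Cav2* and *Pacsin3* were not run. At 1 to 5 counts a library, *Cav3* could be compared only imprecisely. Its log2 fold change, tested under 3 alternatives, lay between -1.46 and -1.37, with standard errors from 0.899 to 1.36 and unadjusted p between 0.153 and 0.282 (edgeR and DESeq2).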
